A study of Homo sapiens with 12 samples.

Results

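The matrix metalloproteinases (MMPs), the ADAMTS proteases and the tissue inhibitors of metalloproteinases (TIMPs) were examined in 2 established human cholangiocarcinoma lines, EGI-1 and HUCCT1, under a DNA methyltransferase inhibitor and a PARP inhibitor. Genes were taken by name, as every row of the count table whose Ensembl identifier maps to MMP, ADAMTS or TIMP followed by digits, with MMP23B allowed and antisense RNAs and pseudogenes left out. The rule gave 46 of 60651 gene rows, of which 23 are MMPs, 19 are ADAMTS proteases and 4 are TIMPs. EGI-1 cells, labelled wild type and grown in DMEM, received vehicle (DMSO), decitabine at 0.5 µM, talazoparib at 200 nM, or both agents. The talazoparib dose is that of the treatment protocol, and the names of the 2 talazoparib libraries carry a different number. HUCCT1 cells, also labelled wild type and grown in RPMI1640, received vehicle or decitabine at 1 µM. All cells were harvested at 72 h, and each of the 6 arms holds 2 libraries from a single line, so other cholangiocarcinomas are not represented. Decitabine is a nucleoside that is built into DNA and depletes DNA methyltransferases, and talazoparib inhibits and traps PARP enzymes.

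MMPs and ADAMTS proteases are zinc-dependent enzymes that are made as inactive precursors and cleave the extracellular matrix and proteins at the cell surface. Collagenases cut fibrillar collagen, gelatinases cut denatured collagen and basement membrane collagen, and the membrane-anchored MMPs act at the cell surface, where MMP14 also activates the precursor of MMP2. ADAMTS proteases are secreted and include enzymes that cleave aggrecan and versican, enzymes that trim procollagen, and the enzyme that cleaves von Willebrand factor. TIMPs bind the active site of these enzymes, and TIMP3 stays bound to the matrix and also blocks several ADAMTS proteases. In tumors of the bile duct these families are studied for their part in the dense stroma and in invasion, and TIMP3 is a textbook case of a gene silenced by promoter methylation in cancers.

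Library totals lay between 23139065 and 34965627 counts, and the deposited values are raw read counts per gene. Levels are given as counts, as CPM (counts set against the library total, scaled with TMM factors) or, where different genes are set side by side, as TPM, which also divides by exon length. Differences are log2 fold changes with their SE from edgeR's quasi-likelihood test, and a gene was called at a Benjamini-Hochberg adjusted p under 0.05 over all genes tested in that comparison. Nothing in the labels says whether the 2 libraries of an arm came from separate cultures, so p-values measure the spread between these libraries, which may be technical. Replicate libraries differed by more than counting noise, with a chi-square of 2.73 to 12.6 per gene. In bulk RNA, fewer cells of a type and less RNA per cell cannot be told apart. All 8 epithelial and biliary markers, such as EPCAM and KRT19, were detected in every arm, with a summed level between 8320 and 16600 CPM.

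A single library stood apart. EGI-1 combination replicate 2 held 381 counts of PTPRC and 148 counts of CD3E, markers of leukocytes and T cells, whereas combination replicate 1 held 2 and 0. In the other EGI-1 libraries PTPRC had 1 to 7 counts and CD3E 0 to 4. The summed level of the 6 leukocyte markers was 21.8 CPM in that library and 3.14 to 4.86 CPM in the other 7 EGI-1 libraries. ADAMTS10, a protease linked to fibrillin microfibrils, had 22 counts in the same library and 0 to 5 in the other 11. Results for the combination are therefore given with and without this library.

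Of the 46 genes, 30 had enough counts to be tested in at least 1 comparison. MMP11, MMP26 and MMP28 had 0 counts in all 12 libraries. The other 13 untested genes were the collagenase MMP8, the stromelysins MMP3 and MMP10, the metalloelastase MMP12, MMP16, MMP23B, MMP27, ADAMTS2, ADAMTS3, ADAMTS10, ADAMTS18, ADAMTS19 and ADAMTS20, and the highest count of any of them was 22. Across 9 comparisons 29 genes were called at least once, and MMP25, at 0.945 to 1.56 CPM in every library, was the tested gene that was not.

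The 2 lines differed in the ADAMTS proteases. In vehicle cells the ADAMTS genes together reached 487 and 489 CPM in HUCCT1 but 40.8 and 41.2 CPM in EGI-1. The summed MMP level was 369 and 391 CPM in HUCCT1 against 230 and 232 CPM in EGI-1, and the TIMP sums overlapped, at 442 and 498 CPM against 455 and 468 CPM. In TPM, TIMP2 led in EGI-1 vehicle with 230 and 241, followed by MMP14 with 109 and 109 and TIMP1 with 86.3 and 87.3. In HUCCT1 vehicle TIMP1 led with 251 and 266 TPM, then TIMP2 with 199 and 214, ADAMTS12 with 130 and 125, MMP14 with 108 and 111, MMP24 with 85.7 and 92.6, and MMP1 with 71.4 and 58.1. Each neighbour in this order was separated by both libraries. Among the 30 genes tested, 15 were higher and 6 lower in HUCCT1, against 28.5% higher and 27.3% lower of all genes. Of the 17 genes that passed the filter on low counts in both vehicle arms, 9 were higher and 4 lower. The shares of all genes are not limited to genes that passed in both arms. The lines differ in culture medium and library series as well as in origin, which cannot be told apart.

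ADAMTS12, which cleaves the cartilage protein COMP, had 342 and 347 CPM in HUCCT1 vehicle but 0.230 and 1.22 CPM in EGI-1 vehicle. Its log2 difference was 8.92 (SE 0.318, adjusted p = 1.21e-08), and the EGI-1 libraries themselves held 7 and 34 counts. ADAMTS9, which cleaves aggrecan and versican, had 54.7 and 52.0 CPM against 0.427 and 0.252 CPM (log2 difference 7.26, SE 0.18, adjusted p = 2.09e-18). MMP1, the interstitial collagenase, was higher by 5.21 on the log2 scale (SE 0.141), MMP24 by 2.61 (SE 0.103), ADAMTS6 by 3.26 (SE 0.129), ADAMTS14 by 3.95 (SE 0.223), MMP19 by 2.32 (SE 0.249), ADAMTS16 by 1.45 (SE 0.108), ADAMTS17 by 1.47 (SE 0.405) and TIMP1 by 1.78 (SE 0.1). TIMP3 went the other way. It had 1745 and 1741 counts in EGI-1 vehicle and 0 and 1 count in HUCCT1 vehicle, a ratio of 4360 (95% exact counting interval 783 to 172000, adjusted p = 1.6e-06). ADAMTS7 (log2 difference -3.31, SE 0.235), MMP13 (-2.12, SE 0.367), TIMP4 (-1.62, SE 0.153) and ADAMTS15 (-1.29, SE 0.118) were also lower in HUCCT1. ADAMTS1, at 3 and 1 counts in EGI-1 vehicle and 16 and 16 in HUCCT1 vehicle, was higher in HUCCT1 by a ratio of 6.39 (2.27 to 24.9), and ADAMTS5, with 0 counts in both EGI-1 vehicle libraries, by at least 1.6-fold against 3 counts per library. With upper-quartile scaling the median of all genes moved to -0.127, and MMP14 (log2 difference 0.21, SE 0.0777) and ADAMTS13 (0.79, SE 0.32) were then no longer called. Those calls, with MMP2 (1.67, SE 0.569) and MMP21 (-0.85, SE 0.305), were also lost without single vehicle libraries, with adjusted p-values between 0.0607 and 0.434.

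In HUCCT1, decitabine changed most of the genes that could be tested. Of 30, 18 rose and 5 fell, against 19.6% higher and 13.9% lower of all 22479 genes tested. The median log2 fold change was 0.78 over the 30 genes and 0.00 over all genes. The 4 genes whose vehicle arm lay at 3 counts or fewer stay above this median at their ratio or bound. Setting them there could not move it. Genes with more than 3 counts went from 27 and 25 of 46 in the vehicle libraries to 37 and 34 in the decitabine libraries. Detection rose over all genes as well. By another threshold, at least 20 counts summed over an arm, 20641 genes were detected in vehicle and 22312 under decitabine. The filter on low counts was passed only through the decitabine arm by 7 of the 18 (MMP9, MMP13, MMP17, ADAMTS4, ADAMTS5, ADAMTS8 and TIMP3). These 7 had to differ and add no weight to the count of genes that rose or to the median. Among the 22 genes that passed the filter in both arms, 10 rose and 5 fell. The shares of all genes given above are not limited in this way, so they are no matching background for these 22.

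TIMP3 had 0 and 1 count in the vehicle libraries and 706 and 661 counts under decitabine. The ratio was 1400 (95% exact counting interval 252 to 55500, counting error only), with an adjusted p of 2.49e-17. At 22.1 and 22.3 CPM the treated HUCCT1 cells remained below every EGI-1 library, which held 48.6 to 89.5 CPM. The other inhibitors did not rise. TIMP2, which both inhibits MMPs and takes part in MMP2 activation, fell from 339 and 382 to 239 and 253 CPM (log2 fold change -0.56, SE 0.107, adjusted p = 0.000176). TIMP1 stayed at 99.2 and 111 CPM in vehicle and 98.2 and 111 CPM under decitabine (log2 fold change -0.01, SE 0.111, adjusted p = 0.946), and TIMP4 gave -0.28 (SE 0.209, adjusted p = 0.335). The summed TIMP level, 442 and 498 CPM in vehicle, was 363 and 390 CPM under decitabine.

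In the hyalectanase clade, the enzymes that cleave aggrecan and versican, the 6 tested proteases were called higher, but ADAMTS4, ADAMTS5 and ADAMTS8 passed the filter on low counts only through the decitabine arm, so that ADAMTS1, ADAMTS9 and ADAMTS15 were the 3 free to move either way. ADAMTS1 went from 16 and 16 to 986 and 954 counts, or from 0.527 and 0.529 to 30.8 and 32.2 CPM (log2 fold change 5.88, SE 0.198, adjusted p = 1.05e-17). Its neighbour ADAMTS5 lies 72.5 kb away on chromosome 21 and went from 7 and 5 to 106 and 104 counts (4.07, SE 0.37, adjusted p = 2.87e-09). The 2 libraries of each arm agreed closely for both genes, and the arms did not overlap. ADAMTS8 rose from 2 and 2 to 63 and 48 counts, a ratio of 28.5 (10.8 to 106, adjusted p = 1.54e-07), while ADAMTS15, 20 kb from it on chromosome 11 on the opposite strand, moved from 6.40 and 6.18 to 8.999 and 8.82 CPM (0.49, SE 0.167, adjusted p = 0.0245). ADAMTS4, or aggrecanase 1, went from 7 and 2 to 46 and 33 counts (3.06, SE 0.535, adjusted p = 6.67e-05). ADAMTS9 was already abundant and rose from 54.7 and 52.0 to 78.4 and 76.6 CPM (0.53, SE 0.11, adjusted p = 0.000473). The seventh gene of the clade, ADAMTS20, had 0 and 0 counts in vehicle and 2 and 6 under decitabine and was not tested.

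The remaining ADAMTS genes split. ADAMTS7 and ADAMTS12, the pair that cleaves COMP, moved in opposite directions. ADAMTS7 rose from 0.923 and 0.860 to 3.31 and 4.43 CPM (log2 fold change 2.10, SE 0.28, adjusted p = 1.55e-06). ADAMTS12, the ADAMTS gene with the highest level in this line, fell from 342 and 347 to 195 and 172 CPM (-0.92, SE 0.108, adjusted p = 2.37e-07). ADAMTS14, which trims procollagen, fell from 15.6 and 18.5 to 8.66 and 7.74 CPM (-1.06, SE 0.15, adjusted p = 3.8e-06). ADAMTS16 rose from 24.2 and 25.03 to 41.1 and 40.3 CPM (0.71, SE 0.118, adjusted p = 3.13e-05) and ADAMTS17 from 0.956 and 1.06 to 1.84 and 1.83 CPM (0.85, SE 0.31, adjusted p = 0.0358). ADAMTS6 (0.08, SE 0.119) and ADAMTS13, the enzyme that cleaves von Willebrand factor (0.27, SE 0.302), did not pass the test. ADAMTS12 made up most of the family's counts. The summed ADAMTS level was thus 487 and 489 CPM in vehicle and 418 and 392 CPM under decitabine. Of 13 tested ADAMTS genes 9 rose, beside 19.6% higher of all genes tested. ADAMTS4, ADAMTS5 and ADAMTS8 among these 9 passed the filter on low counts only through the decitabine arm, so they had to be higher.

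The gelatinases MMP2 and MMP9 and the collagenases MMP1 and MMP13 were called higher in HUCCT1, of which MMP9 and MMP13 passed the filter on low counts only through the decitabine arm. MMP2 went from 10 and 17 to 203 and 245 counts (log2 fold change 4.01, SE 0.291, adjusted p = 4.08e-11) and MMP13 from 8 and 10 to 138 and 97 counts (3.65, SE 0.343, adjusted p = 4.95e-09). MMP1 rose from 53.5 and 45.9 to 159 and 145 CPM (1.6, SE 0.117, adjusted p = 4.55e-11) and was then second in TPM after TIMP1, with 221 and 195 against 259 and 283. MMP9 stayed rare, with 3 and 2 counts in vehicle and 11 and 21 under decitabine, a ratio of 6.58 (2.54 to 21.6, adjusted p = 0.00774). Among the membrane-anchored MMPs, MMP17, which is held by a lipid anchor, had 0 counts in both vehicle libraries and 37 and 60 under decitabine, at least 16.6-fold higher against 3 counts per library (adjusted p = 1.68e-07). MMP15 rose from 54.3 and 60.9 to 97.2 and 117 CPM (0.88, SE 0.116, adjusted p = 1.33e-06). MMP24 fell from 103 and 117 to 39.5 and 43.8 CPM (-1.41, SE 0.115, adjusted p = 3.81e-10), while the antisense gene MMP24OS, whose exons overlap it, gave -0.02 (adjusted p = 0.959). MMP14 was level at 136 and 148 against 138 and 157 CPM (0.04, SE 0.109, adjusted p = 0.808). Of the others, MMP19 rose from 3.40 and 4.001 to 6.41 and 7.13 CPM (0.86, SE 0.194, adjusted p = 0.00109), MMP20 from 16 and 3 to 61 and 26 counts (2.13, SE 0.531, adjusted p = 0.00299), and the matrilysin MMP7 fell from 15.0 and 12.6 to 9.06 and 8.69 CPM (-0.65, SE 0.153, adjusted p = 0.00159). Calls for ADAMTS15 and ADAMTS17 were lost without any 1 of the 4 libraries (adjusted p between 0.0711 and 0.163), that for MMP9 without vehicle replicate 2 (0.0807) or decitabine replicate 2 (0.318), and that for MMP20 without decitabine replicate 1 (0.0886). DESeq2 also gave MMP9 (0.0552), ADAMTS15 (0.0685) and ADAMTS17 (0.159) an adjusted p over the threshold.

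Markers of other cell types moved in the same comparison. The sum of 8 fibroblast markers went from 37.6 and 37.9 CPM to between 172 and 201 CPM in HUCCT1 decitabine. Most of it was COL1A1 (mean 28.1 and 174 CPM), while LUM of the same list fell from 8.81 to 4.27 CPM (log2 fold change -1.05, SE 0.197). COL3A1 was at 1 count in each treated library and DCN was at 12 and 7 counts. Of 6 fibroblast markers tested 5 were called higher (COL1A1, COL1A2, PDGFRB, PDGFRA and THY1) and 1 lower, beside 19.6% and 13.9% of all genes. The sum of 4 endothelial markers went from between 4.23 and 5.47 CPM to between 25.8 and 27.1 CPM, and all 4 were called higher. That of 6 leukocyte markers went from 3.26 and 3.77 to 6.56 and 7.16 CPM. PTPRC was at 3 and 3 counts under decitabine. CD3E went from 0 and 1 to 17 and 23 counts and ITGAM from 11 and 14 to 51 and 52. Both were called higher, as was CD79A, of 4 leukocyte markers tested. COL1A2, PDGFRA, THY1, CD3E, CD79A and KDR passed the filter on low counts only through the decitabine arm, so they had to be higher. The sum of the epithelial markers went from between 14800 and 16600 CPM to between 9390 and 10700 CPM. Of the 8 epithelial markers, 5 fell, chiefly the abundant keratins such as KRT7 (mean 6985 to 4346 CPM), CDH1 rose from 309.8 to 516 CPM, and EPCAM and SOX9 did not pass the test. Their part in the changes of these proteases and inhibitors was not tested.

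Of the 9 MMP genes that sit together on chromosome 11 (chr11:102520508-102955732, GRCh38), 4 could be tested in HUCCT1, and they did not move as a block. MMP1, MMP13 and MMP20 rose and MMP7 fell. The other 5 of the cluster, MMP3, MMP8, MMP10, MMP12 and MMP27, had 0 to 7 counts in every HUCCT1 library of either arm. The exons of MMP1 and MMP3 overlap the transcribed pseudogene WTAPP1 on the opposite strand, which had 1 and 5 counts in vehicle and 9 and 9 under decitabine against 5076 and 4287 counts for MMP1. MMP20 overlaps MMP20-AS1, which rose as well (log2 fold change 1.93, adjusted p = 0.0324). Whether the counting used strand is not stated, so MMP20 and MMP20-AS1 reads cannot be told apart.

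The promoter table of RefSeq (GRCh38.p14; 250 bases before to 50 after each start) held 27 of the 46 genes. The upstream windows of 4 genes are shown because they span the responses seen in HUCCT1, with every CpG, the dinucleotide whose cytosine DNA methyltransferases modify, in capitals. TIMP3 and ADAMTS7 rose there and ADAMTS14 and MMP7 fell. They are the windows chr22:32801455-32801704 (+), chr15:78811465-78811714 (-), chr10:70672256-70672505 (+) and chr11:102530751-102530997 (-), the last shortened by the bases that the annotated MMP7 gene covers.
TIMP3: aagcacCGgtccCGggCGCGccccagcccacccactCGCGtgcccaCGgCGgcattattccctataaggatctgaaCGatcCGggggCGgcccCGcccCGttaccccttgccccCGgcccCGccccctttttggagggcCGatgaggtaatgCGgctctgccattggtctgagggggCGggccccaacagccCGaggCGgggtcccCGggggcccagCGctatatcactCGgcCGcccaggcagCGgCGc
ADAMTS7: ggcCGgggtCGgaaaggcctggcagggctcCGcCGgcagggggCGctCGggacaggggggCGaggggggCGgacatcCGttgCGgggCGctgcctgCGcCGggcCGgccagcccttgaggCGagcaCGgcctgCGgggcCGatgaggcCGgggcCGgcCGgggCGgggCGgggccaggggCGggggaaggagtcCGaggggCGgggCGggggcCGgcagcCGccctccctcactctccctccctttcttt
ADAMTS14: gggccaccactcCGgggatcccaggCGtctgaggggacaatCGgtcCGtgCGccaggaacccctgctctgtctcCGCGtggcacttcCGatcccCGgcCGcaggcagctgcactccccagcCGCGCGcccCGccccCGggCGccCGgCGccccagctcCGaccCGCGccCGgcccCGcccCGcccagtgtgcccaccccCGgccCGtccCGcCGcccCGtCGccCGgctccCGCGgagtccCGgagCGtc
MMP7: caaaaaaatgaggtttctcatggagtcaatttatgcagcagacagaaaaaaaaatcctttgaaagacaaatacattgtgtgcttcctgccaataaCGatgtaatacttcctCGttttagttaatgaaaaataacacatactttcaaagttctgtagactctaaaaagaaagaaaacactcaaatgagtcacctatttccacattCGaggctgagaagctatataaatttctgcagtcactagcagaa
These windows hold 26, 29, 35 and 3 CpGs. Over the full 300 bases the 5 genes that rose and had an entry (MMP15, MMP20, ADAMTS7, ADAMTS17 and TIMP3) held 3 to 39 CpGs with a median of 29, and the 4 that fell (MMP7, MMP24, ADAMTS12 and ADAMTS14) held 4 to 42 with a median of 30.5. The ranges of these 9 genes overlapped. The other 13 of the 18 genes that rose, ADAMTS1, ADAMTS5, MMP2 and MMP13 among them, had no entry, so the comparison does not cover them. All promoters of the table had a median of 14 CpGs. The AP-1 motif TGANTCA was searched in full windows on both strands. It was present in 4 of the 27 genes with an entry and in 7.71% of all promoters. The 4 were MMP7 and MMP10 (each 67 bases before the start), ADAMTS12 (84) and MMP20 (112). The 19 genes without an entry, MMP1, MMP2, MMP3, MMP9 and MMP13 among them, were not searched. No methylation was measured in these libraries.

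In EGI-1, decitabine alone changed 1 of 24 tested genes, against 0.544% of all genes. MMP1 rose from 1.35 and 1.33 to 4.92 and 4.02 CPM (log2 fold change 1.75, SE 0.202, adjusted p = 0.000344), and the arms did not overlap. At an unadjusted p under 0.05 there were 8 genes, all higher, with MMP13, MMP14, MMP19, MMP20, ADAMTS9, TIMP1 and TIMP2 beside MMP1, where 6.03% of all genes were higher and 3.12% lower. MMP14 came nearest to the threshold (0.25, SE 0.0585, adjusted p = 0.0667). TIMP3, already expressed, had 57.3 and 62.6 CPM in vehicle and 48.6 and 89.5 CPM under decitabine, so its 2 treated libraries spanned both vehicle libraries. With any 1 library of either arm left out, the log2 fold change of MMP1 lay between 1.59 and 1.88.

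Talazoparib alone gave 3 higher genes and 1 lower, against 2.83% and 1.29% of all genes. MMP7 fell from 13.9 and 14.8 to 8.36 and 7.79 CPM (log2 fold change -0.83, SE 0.114, adjusted p = 0.000303). The membrane-anchored MMP14 rose from 125 and 122 to 175 and 166.2 CPM (0.47, SE 0.0584, adjusted p = 0.000118) and MMP24 from 18.7 and 17.3 to 27.9 and 25.1 CPM (0.56, SE 0.0971, adjusted p = 0.00215). ADAMTS15 rose from 15.0 and 15.9 to 21.6 and 20.7 CPM (0.46, SE 0.0995, adjusted p = 0.0111). MMP1, the gene called under decitabine, gave 0.43 (SE 0.221, adjusted p = 0.372). The ADAMTS15 call was lost without any 1 of the 4 libraries (adjusted p between 0.0595 and 0.22) and the MMP24 call without vehicle replicate 2 (0.0852, which left 2 calls in all).

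With both agents 13 of the 24 genes were called, 11 higher and 2 lower, against 11.1% and 7.61% of all genes. The median was 0.72 over these genes and -0.02 over all genes. MMP2, MMP9 and MMP20 passed the filter on low counts only through the combination arm, so they add no weight to the count or the median. Of the 19 genes that passed it in both arms 8 rose and 2 fell. The shares of all genes given here are not limited to genes that passed in both arms. Without combination replicate 2, the library with leukocyte markers, 1 library was left in that arm and all 13 called genes kept their direction. Log2 fold changes of the 11 higher genes then lay between 0.39 (TIMP2) and 2.67 (MMP2). Those of the 2 lower genes were -0.91 (MMP7) and -0.55 (TIMP4).

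MMP1 reached 6.58 and 6.68 CPM, from 1.35 and 1.33 in vehicle (log2 fold change 2.30, SE 0.198, adjusted p = 3.17e-07, and 2.29 without combination replicate 2). MMP14 rose to 206 and 204 CPM (0.73, SE 0.0584, adjusted p = 1.33e-07) and MMP24 to 33.5 and 30.9 CPM (0.83, SE 0.0966, adjusted p = 9.61e-06). ADAMTS15 rose to 27.9 and 24.8 CPM (0.76, SE 0.0988, adjusted p = 3.17e-05). All 4 genes were above both vehicle libraries in both combination libraries. MMP19, a broad-spectrum MMP, went from 0.722 and 0.756 to 2.45 and 1.88 CPM (1.53, SE 0.287, adjusted p = 0.00105), and ADAMTS9 from 13 and 7 to 30 and 53 counts (2.11, SE 0.375, adjusted p = 0.000693, and 1.82 without combination replicate 2, adjusted p = 0.016). TIMP2 rose from 353 and 360 to 470 and 454 CPM (0.37, SE 0.0582, adjusted p = 0.000239). MMP7 fell to 7.64 and 8.10 CPM (-0.87, SE 0.115, adjusted p = 3.61e-05), close to its level under talazoparib alone.

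The other calls were less firm. MMP2, from 4 and 4 to 22 and 20 counts (log2 fold change 2.45, SE 0.616, adjusted p = 0.00949), was not called without either vehicle library (0.0956 and 0.0768) or without combination replicate 1 (0.0692). MMP9, from 10 and 5 to 20 and 20 counts (1.49, SE 0.485, adjusted p = 0.0401), was lost without any 1 of the 4 libraries (0.082 to 0.267). Neither gelatinase exceeded 22 counts in any EGI-1 library. ADAMTS14, from 38 and 26 to 45 and 82 counts (1.05, SE 0.296, adjusted p = 0.0188), was lost without combination replicate 2 (0.74, adjusted p = 0.219), without either vehicle library (0.0594 and 0.187) and with DESeq2 (0.0513). TIMP4, from 13.6 and 14.7 to 9.73 and 9.12 CPM (-0.60, SE 0.136, adjusted p = 0.00484), was lost without combination replicate 2 (0.0572) or vehicle replicate 2 (0.0734). ADAMTS6, linked to fibrillin, rose from 4.20 and 3.63 to 6.38 and 7.05 CPM (0.77, SE 0.159, adjusted p = 0.00233) and was lost without vehicle replicate 2 (0.0577). TIMP1 (0.11, SE 0.0954) and TIMP3 (0.22, SE 0.301) did not pass the test.

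Some of the genes that rose share exon sequence with a neighbour that rose as well. TMEM198B, on the opposite strand at MMP19, had 140 and 129 counts in vehicle and 194 and 212 in the combination (log2 fold change 0.68, adjusted p = 0.0033), and CEP295NL, on the same strand at TIMP2, gave 0.47 (adjusted p = 0.014). MMP24OS, at MMP24, gave -0.19 (adjusted p = 0.184). The sum of the 8 fibroblast markers was 29.1 to 30.7 CPM in EGI-1 vehicle and 43.3 to 50.4 CPM in the combination, with DCN and LUM at 0 counts in both, and that of the 4 endothelial markers was 19.8 to 21.2 and 28.7 to 29.8 CPM. Their part in these changes was not tested.

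**Figure D1:**
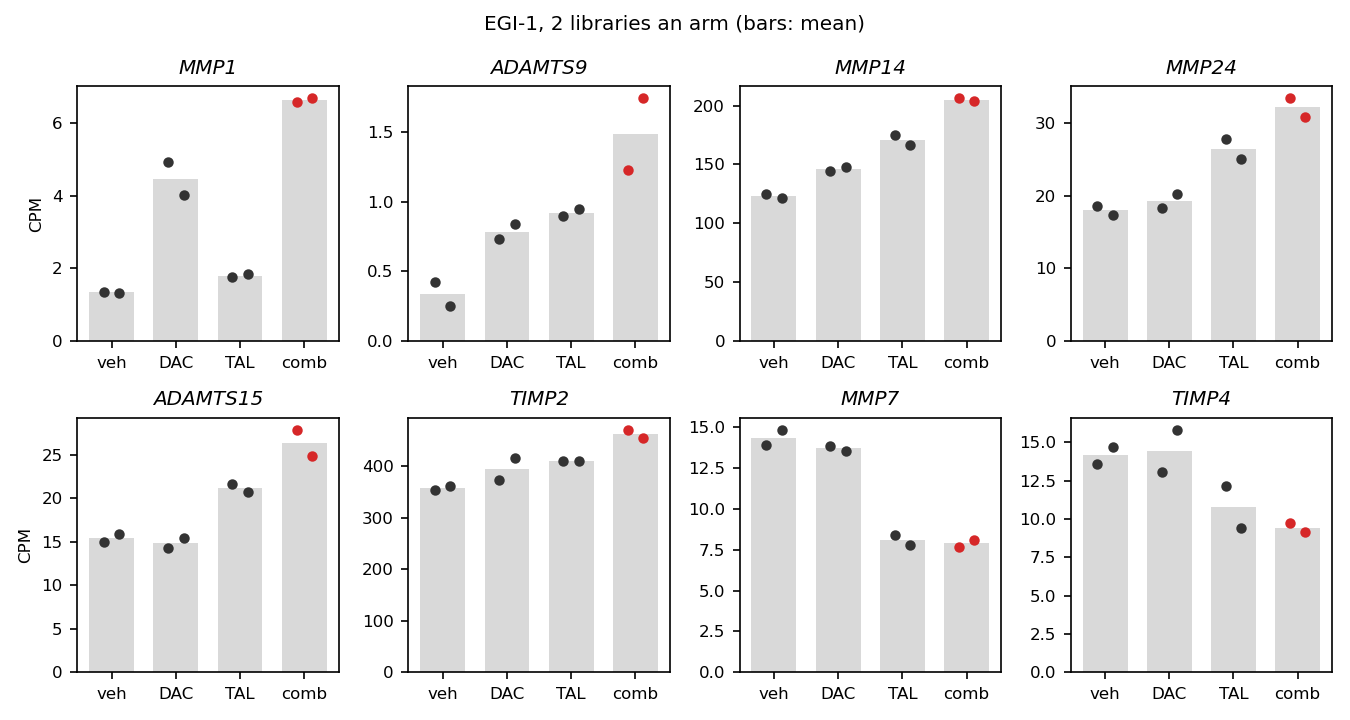
Level of 8 genes in the 4 EGI-1 arms. Bars are means and points the 2 libraries of each arm, in CPM on axes that start at 0, with the combination in red (veh, vehicle; DAC, decitabine; TAL, talazoparib; comb, combination); MMP1 is at 6.58 and 6.68 CPM in the combination against 4.92 and 4.02 CPM with decitabine, and MMP7 is at 8.36 and 7.79 CPM with talazoparib and 7.64 and 8.10 CPM with both agents.

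The combination was also set against each single agent, and 8 genes passed the test against decitabine but 2 against talazoparib. Against decitabine 6 genes were higher and 2 lower, against 4.42% and 3.26% of all genes. These were MMP14 (log2 difference 0.48, SE 0.0581), MMP24 (0.73, SE 0.0963), ADAMTS15 (0.81, SE 0.0992), ADAMTS6 (0.55, SE 0.157), ADAMTS14 (1.03, SE 0.296) and TIMP2 (0.22, SE 0.0581), with MMP7 (-0.81, SE 0.115) and TIMP4 (-0.63, SE 0.136) lower. Without combination replicate 2 there were 3 higher (MMP14, MMP24 and ADAMTS15) and 1 lower (MMP7), and ADAMTS6, ADAMTS14, TIMP2 and TIMP4 then had adjusted p-values of 0.222, 0.319, 0.0864 and 0.0858. Without decitabine replicate 1 the calls for ADAMTS6 (0.135), ADAMTS14 (0.253) and TIMP2 (0.176) were lost, and without combination replicate 1 those for ADAMTS6 (0.0813) and TIMP2 (0.187). ADAMTS6 was also lost without decitabine replicate 2 (0.0536). Against talazoparib 2 genes were higher, against 1.92% of all genes called in either direction, namely MMP1 (1.87, SE 0.19, adjusted p = 1.78e-05) and MMP14 (0.25, SE 0.0579, adjusted p = 0.0293). The MMP14 call was lost without any 1 of the 4 libraries (0.0851 to 0.323), whereas MMP1 kept its call in each of them.

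Whether the combination departed from the sum of the single log2 effects was tested with an interaction term, which was not called for any of the 24 genes by edgeR or DESeq2, against 0.161% of all genes. At an unadjusted p under 0.05 there was 1, ADAMTS15 (0.35, SE 0.14, unadjusted p = 0.0225), and 3.38% of all genes lay under it. MMP14 departed by 0.00 (SE 0.0825), MMP1 by 0.13 (SE 0.283) and MMP2 by 0.67 (SE 0.952).

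**Figure D2:**
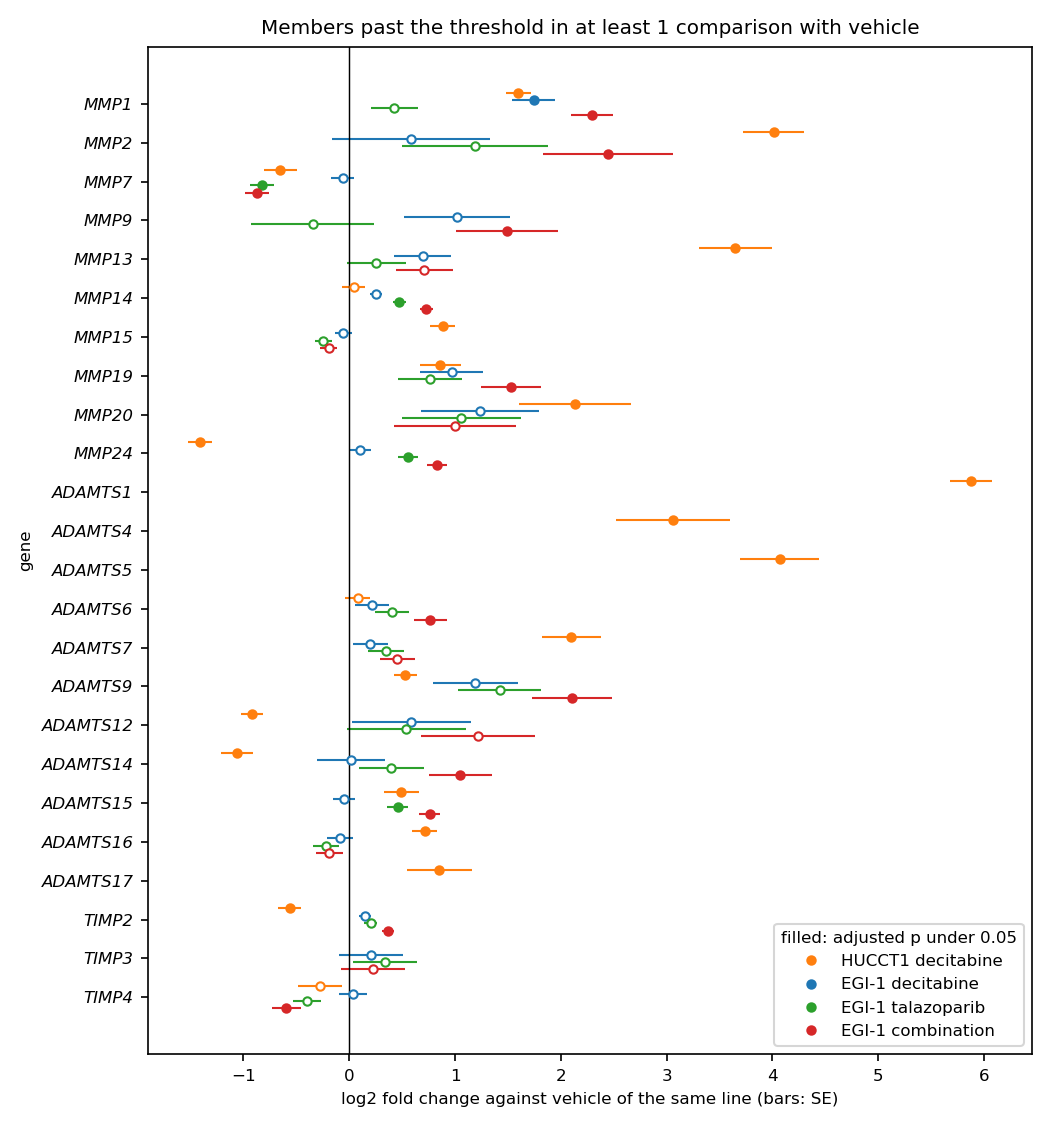
Log2 fold change against vehicle of the same line, with SE bars, for 24 of the 26 genes called in a comparison with vehicle. Filled points have an adjusted p under 0.05, and values against an arm at 3 counts or fewer are not drawn, which leaves out MMP17 and ADAMTS8. MMP24, ADAMTS14 and TIMP2 lie below 0 in HUCCT1 and above 0 in the EGI-1 combination.

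TIMP3, ADAMTS1, MMP2 and MMP13 responded more to decitabine in HUCCT1 than in EGI-1, and MMP24 and TIMP2 moved lower in HUCCT1. The difference of the log2 effects was tested by an interaction term in a fit of all 12 libraries. The dose was 1 µM in HUCCT1 and 0.5 µM in EGI-1, and the line, its medium and library series and the dose cannot be told apart. Of 30 genes tested, 10 had a higher effect in HUCCT1 and 4 a lower one, against 8.74% and 7.2% of all genes. ADAMTS8 among the 10, and MMP17, ADAMTS4 and ADAMTS5 among the 30, passed the filter on low counts only through the HUCCT1 decitabine arm. They add no weight to these counts. MMP2 (difference of log2 effects 3.44, SE 0.839), MMP13 (2.97, SE 0.445), ADAMTS7 (1.92, SE 0.311), MMP15 (0.95, SE 0.138) and ADAMTS16 (0.82, SE 0.152) were among the first group. ADAMTS1, ADAMTS8 and TIMP3 were also called (adjusted p = 0.000164, 0.00219 and 0.000212), with an arm at 3 counts or fewer. MMP24 (-1.495, SE 0.142) and TIMP2 (-0.70, SE 0.108) had the lower effect in HUCCT1 in every setting tried. MMP1 rose in both lines, and its difference was not called (-0.13, SE 0.2, adjusted p = 0.749). DESeq2 did not call the difference for ADAMTS17 (adjusted p = 0.148). Without single libraries the calls for ADAMTS17 (1.895, SE 0.629), ADAMTS15 (0.56, SE 0.164), MMP7 (-0.57, SE 0.173) and ADAMTS14 (-1.06, SE 0.337) were lost, with adjusted p-values up to 0.184, 0.111, 0.123 and 0.265, and that for MMP2 was lost without EGI-1 vehicle replicate 2 (0.0588).

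HUCCT1 decitabine and the EGI-1 combination do not share control libraries. They had 10 called genes in common, 43.5% of the 23 called in HUCCT1 and 76.9% of the 13 called in EGI-1. The latter share is at the level of all tested members, of which 76.7% were called in HUCCT1, so it says nothing about sharing. Over all genes tested in both comparisons, 2074 were called in both, 33.7% of those called in HUCCT1 and 51.4% of those called in EGI-1. MMP1, MMP2, MMP9, MMP19, ADAMTS9 and ADAMTS15 were higher in both and MMP7 was lower in both. MMP9 in HUCCT1, and MMP2 and MMP9 in EGI-1, passed the filter on low counts only through the treated arm. They had to be higher there and add no weight to the shared count or its percentages. MMP24, ADAMTS14 and TIMP2 moved in opposite directions, at -1.41 and 0.83, -1.06 and 1.05, and -0.56 and 0.37 on the log2 scale. The EGI-1 value of ADAMTS14, one of the less firm calls, was 0.74 without combination replicate 2.

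Other genes of the pathway were read from lists of 40 genes, made of activators and regulators, ADAMTS-like proteins, ADAM proteases and substrates. In HUCCT1 under decitabine 15 of 34 tested were higher and 7 lower, beside 19.6% and 13.9% of all genes. Among the 15, ADAM33 (mean 0.01653 to 1.602 CPM) and ADAMTSL3 (0.1651 to 0.852 CPM) passed the filter on low counts only through the decitabine arm. They had to be higher and add no weight to that count. In the EGI-1 combination 8 of 26 were higher and 1 lower, beside 11.1% and 7.61%. Among substrates in HUCCT1, the fibrillins FBN1 (log2 fold change 3.32, SE 0.194) and FBN2 (3.70, SE 0.147), FN1 (1.41, SE 0.11), ELN (1.75, SE 0.361) and VWF, also an endothelial marker (1.83, SE 0.179), rose, while VCAN, the substrate of several ADAMTS proteases that rose, fell from 89.9 ± 4.71 to 25.5 ± 2.58 CPM (mean ± SD, n = 2) (-1.83, SE 0.12) and HSPG2 by -0.68 (SE 0.107). Regulators rose in 4 cases of 10, among them PCSK6 (0.57, SE 0.129) and FURIN (0.34, SE 0.109), proteases that remove propeptides, and TFPI2, a serine protease inhibitor (2.65, SE 0.14), while SPOCK2, a proteoglycan, fell (-0.98, SE 0.108). In the EGI-1 combination VWF (1.64, SE 0.202), ADAMTSL4 (1.04, SE 0.122), ADAMTSL5 (0.93, SE 0.13), LRP1, the receptor that clears many proteases and TIMP complexes (0.86, SE 0.128), and ADAM19 (0.86, SE 0.0622) rose, and ADAM17, the sheddase of TNF, gave -0.22 (SE 0.0672). ADAMTSL4 rose in HUCCT1 as well (1.28, SE 0.145), whereas ADAMTSL5 (-0.39, SE 0.133) and ADAMTSL1 (-1.31, SE 0.135) fell there. PAPLN rose by 0.47 in both (SE 0.148 in HUCCT1 and 0.154 in EGI-1), and ADAM8 by 0.38 (SE 0.108) in HUCCT1 and 0.46 (SE 0.0696) in EGI-1. ADAM12 rose in HUCCT1 (0.81, SE 0.151), and ADAM10 (-0.42, SE 0.112) and ADAM28 (-0.40, SE 0.145) fell. BSG, an inducer of MMPs, rose in the EGI-1 combination (0.20, SE 0.0574), and SPOCK1 was called in the line difference (-0.84, SE 0.282) and between the vehicle lines (3.09, SE 0.203).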

How the data were processed

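Total RNA from the 2 lines was sequenced in 12 libraries of 23139065 to 34965627 counts, grouped by line and treatment from the labels. The deposited values are raw counts per Ensembl gene, whole numbers made by the authors before any scaling. The submitters' processing notes name HISAT2 and featureCounts with GRCh38, whereas the methods of the study name STAR and RSEM for EGI-1, so the aligner and counter, and the use of strand, are not settled here. Genes, coordinates and exon lengths were read from GENCODE.

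Counts were filtered by filterByExpr by arm (minimum count 10), scaled by TMM and tested with edgeR 4.0.16 in R 4.3.3 (robust quasi-likelihood, Benjamini-Hochberg over all genes), in 3 fits, of the 8 EGI-1, the 4 HUCCT1 and all 12 libraries. SE is the absolute log2 fold change over the square root of F. Where an arm had 3 counts or fewer in every library, a ratio with an exact 95% counting interval, or a bound against 3 counts per library, replaces the fold. Intervals cover counting error only. An exact permutation test of 2 against 2 cannot go below 0.333 and was not used. On simulated counts with 2-fold changes, the test recovered 72% of changed genes for the EGI-1 combination and 73.5% for HUCCT1. It made 18 false calls beside 144 recovered genes for the EGI-1 combination, and 14 beside 147 for HUCCT1. In both simulations the share of false calls lay above the adjusted p threshold. Alternatives were DESeq2 1.42.0, RLE and upper-quartile factors, no filter, other sets of libraries, replicate blocks and leaving out each library. The members and gene lists were chosen with earlier results of these data known. Every member called in a comparison is described with its values, and listed pathway genes are named where they were called in 2 or more comparisons. ADAM33 and ADAMTSL3 are named because of the filter on low counts.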

Additional observations from a re-analysis of the deposited data

Results flagged for a closer look

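The response to decitabine differed between the lines for 14 genes by edgeR's interaction term, and these are listed for a closer look because the difference itself passed the test. The log2 effect in HUCCT1 exceeded that in EGI-1 by 3.44 for MMP2, 2.97 for MMP13, 1.92 for ADAMTS7, 1.895 for ADAMTS17, 0.95 for MMP15, 0.82 for ADAMTS16 and 0.56 for ADAMTS15. It was lower in HUCCT1 for MMP24 (-1.495), ADAMTS14 (-1.06), TIMP2 (-0.70) and MMP7 (-0.57). Of 14 other settings, the call was lost in 11 for ADAMTS17, 7 for ADAMTS15, 5 for MMP7, 4 for ADAMTS14 and 1 for MMP2. ADAMTS1, ADAMTS8 and TIMP3 passed with adjusted p-values of 0.000164, 0.00219 and 0.000212, with at least 1 arm at 3 counts or fewer, so no size is given. ADAMTS8 passed the filter on low counts only through the HUCCT1 decitabine arm, so its call adds no weight. The doses were 1 µM in HUCCT1 and 0.5 µM in EGI-1.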

How the results depend on the processing

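No call reversed. Of 86 calls of a gene in a comparison, 61 held in every setting run. Settings other than leaving out a library gave the same call in 511 of 542 cases and a weaker one in 31, and leaving out a library gave the same call in 323 of 400 and a weaker one in 77. The cause of each change was not tested.

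Counts of called genes moved by over 1.5 times in the comparisons below, where calls over all genes and the number tested changed as well. For talazoparib, all-gene calls were 635 higher and 288 lower of 22406 genes in the main fit. They were 860 and 429 of 40184 without a filter, and 1133 and 718 of 21278 with 4 libraries alone. The members tested were 24, 42 and 22 in that order. Decitabine in EGI-1 (1 gene) gave 2 with DESeq2, 2 without a filter and 1 to 4 with a library left out (4 without decitabine replicate 1). Talazoparib (4) gave 7 without a filter, 9 with the 4 libraries of the compared arms alone and 2 to 3 with a library left out. The combination against decitabine (8) gave 5 with the replicate block by title number, 5 with the 4 libraries alone and 4 to 10 with a library left out. The combination against talazoparib (2) gave 4 without a filter, 1 with either replicate block and 1 to 2 with a library left out. The departure from the sum (0) gave 0 to 1, the 1 without decitabine replicate 1. With a library left out the other counts were 20 to 21 of 23 in HUCCT1, 9 to 12 of 13 for the combination, 10 to 14 of 14 for the line difference and 17 to 21 of 21 for the vehicle lines. Upper-quartile factors turned all-gene calls of the combination from 2489 higher and 1705 lower to 2177 and 2244, and those between vehicle lines from 7155 and 6848 to 6156 and 7921.

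Replicate numbers are shared across arms, but same-numbered EGI-1 libraries did not deviate together (r from -0.068 to 0.057), and the 2 HUCCT1 arms gave r = 0.109. A correlation over all genes cannot exclude pairing, so whether same-numbered libraries were paired is not settled here. With the block by title number the HUCCT1 count of called genes stayed at 23 and that of the combination was 12. All-gene calls in HUCCT1 went from 4404 higher and 3121 lower to 5488 and 4648. Those of the combination went from 2489 and 1705 to 2181 and 1335.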
